A study of Mus musculus with 11 samples.

Results

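Genomic imprinting silences one parental copy of a gene, so that the other copy alone is transcribed. The 10 such genes examined here, in the mouse adrenal gland, set the growth of cells and tissues: Cdkn1c, Plagl1, H19, Dlk1, Meg3, Grb10, Mest, Peg3, Nnat and Ndn. They were chosen by name as 10 of the 23337 gene symbols in the count table, and all 10 passed the filter on low counts. The choice of these genes and of the gene lists used below was made with earlier results of these data known. In the mouse, Cdkn1c, H19, Meg3 and, outside the brain, Grb10 are expressed mainly from the maternal copy, and the other members from the paternal copy. The counts, and the ratios made from them below, do not separate the parental copies. Which copy was active in these glands was therefore not measured, for the members or for any other gene called imprinted below. Several of the members are abundant in fetal tissues and decline after birth. In people, changed CDKN1C dosage is known from overgrowth with enlarged adrenals and from growth restriction with small adrenals.

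Gene expression was measured by RNA sequencing of adrenal glands from male Hsd:Athymic Nude-Foxn1nu mice, a strain without a normal thymus, in 6 samples of the ORX group (orchiectomised, that is with the testes removed) and 5 samples of the INTACT group. Mice of both groups carried VCaP cells, a human prostate cancer line, given at week 0 at an age of 5 to 6 weeks. Allocation followed at week 7 and collection of the adrenals at week 15. If the tumours grew differently in ORX and INTACT mice, that cannot be told apart from the operation. Since the labels do not state whether each sample is a separate mouse, the tests reflect the spread over these samples, and some of it may be technical.

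The libraries held 11368447 to 15029582 counts and 16373 to 16829 detected genes. Of 14139 genes tested, 428 (3.03%) were higher and 450 (3.18%) lower in ORX, together 878 or 6.21%, and 747 (5.28%) showed groups that did not overlap (edgeR's quasi-likelihood test, two-sided, Benjamini-Hochberg adjusted p under 0.05). ORX 6 stood apart from its group. Relative to its group, its genes with the shortest transcripts (up to 1454 bases) lay at 0.72 and those with the longest (from 6865 bases) at -0.67 on the log2 scale, against -0.20 to 0.23 and -0.29 to 0.21 in the other libraries. INTACT 3 had the lowest summed level of the cortex markers, 35548 CPM (library-scaled counts, by edgeR's TMM factors), against 50417 to 79889 CPM in the other INTACT libraries. Among marker lists, 4 of 10 cortex markers (Nr0b1, Mc2r and Hsd3b1 with the smallest p) and all 3 X-zone markers (Akr1c18, Pik3c2g and Thrb) were higher in ORX. The other 6 cortex markers did not pass, and 3 of them had fold changes below 0 (Scarb1 at -1.15, Cyp11a1 at -0.56 and Fdx1 at -0.54 on the log2 scale). The summed cortex markers were 62338 to 95411 CPM in ORX and 35548 to 79889 CPM in INTACT. Of 19 markers of the medulla, where chromaffin cells make catecholamines, 4 fell in ORX (Slc18a2, Ret and Npy with the smallest p), and the list's summed level was 7930 to 19022 CPM in ORX and 14004 to 33396 CPM in INTACT. The Npy call was lost without any one of ORX 1, 2, 4 and 5 and INTACT 1, 2 and 5 (edgeR adjusted p up to 0.0813), and the Thrb call without any one of ORX 2 and INTACT 1, 2 and 5 (up to 0.0555). Of 16 capsule and stroma markers 1 was lower (Pdgfrb, whose call was lost without ORX 5 or INTACT 5, at an edgeR adjusted p of up to 0.0582), with sums of 614 to 1588 CPM in ORX and 756 to 1490 CPM in INTACT. None of 10 fat, 10 endothelium, 10 macrophage and 8 Schwann cell markers passed the test, and no list had a marker at 0 in every library. The summed fat markers nevertheless varied widely, from 3409 to 14665 CPM in ORX and from 5333 to 14278 CPM in INTACT. ORX 3 and INTACT 3 were the highest of their groups in that sum. In whole glands, fewer cells of a type and less RNA per cell cannot be told apart.

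Sequences are shown first for the small RNAs that 3 of the members carry and for promoters that hold a searched motif. H19, Meg3 and Mest contain 4 miRNA loci with 7 mature arms, no pair of which shares a seed (RefSeq, GRCm38.p6). The 5p arm of 3 of the loci is printed 5′ to 3′ with the seed, bases 2 to 8, in capitals.
mmu-miR-675-5p: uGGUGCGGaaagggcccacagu
mmu-miR-770-5p: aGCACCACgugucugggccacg
mmu-miR-335-5p: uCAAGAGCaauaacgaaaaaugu
The first lies in an exon of H19 (chr7:142577112-142577133, minus strand), the second in an exon of Meg3 (chr12:109563710-109563731, plus strand) and the third in an intron of Mest (chr6:30741314-30741336, plus strand). Libraries of this kind are made from long RNA and do not measure mature miRNAs. The table's row for Mir335 held 4 counts over all 11 libraries, and those for Mir675, Mir770 and Mir1906-1 held 0. The levels of their hosts, given further on, are therefore the only readout of these loci here.

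RefSeq promoter windows of 300 bases (250 before and 50 after the start, GRCm38.p6) covered 8 of the 10 members (all but H19 and Cdkn1c) with 12 windows, and 11 of these held more CpG pairs than the median of 7 over 32851 mouse promoters. The first Grb10 promoter, at chr11:12037371-12037670 on the minus strand, held 45 CpG pairs and was 80% G or C, more CpG pairs than 98.1% of promoters. It is printed with each CpG in capitals, as the most CpG-rich of these 12 windows.
Grb10 promoter: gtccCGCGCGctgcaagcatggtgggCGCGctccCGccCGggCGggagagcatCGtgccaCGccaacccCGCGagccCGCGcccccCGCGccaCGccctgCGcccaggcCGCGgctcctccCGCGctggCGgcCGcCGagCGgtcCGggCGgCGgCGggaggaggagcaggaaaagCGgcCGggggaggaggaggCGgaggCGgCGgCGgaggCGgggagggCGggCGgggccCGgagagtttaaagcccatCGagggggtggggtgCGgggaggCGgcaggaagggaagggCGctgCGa
Both strands of each window were searched for AGAACA, a hexamer bound by one monomer of the androgen receptor, which 19% of all promoters hold, and for GGGGCCCC, a core of the known binding site of Plagl1, which 1.08% hold. Among the members AGAACA occurred at 1 place in the Nnat promoter (chr2:157559828-157560127, plus strand), and GGGGCCCC at 1 place in the Peg3 promoter (chr7:6730370-6730669, minus strand). AGAACA occurred at 2 places in the promoter of Slc22a18 (chr7:143473539-143473838, plus strand), the imprinted neighbour of Cdkn1c, which is shown because Slc22a18 was higher in ORX. Among the other non-members searched it also occurred at 2 places in Mirg and at 1 in Rian and the first Igf2 window, none of which passed the test, and at 1 in Pon3, which was higher in ORX; it did not occur in the windows of Dnmt3l and Pon2, which were higher too, nor in those of Cobl and Phlda2. The matches are in capitals and are a description of these letters, not of binding.
Slc22a18 promoter: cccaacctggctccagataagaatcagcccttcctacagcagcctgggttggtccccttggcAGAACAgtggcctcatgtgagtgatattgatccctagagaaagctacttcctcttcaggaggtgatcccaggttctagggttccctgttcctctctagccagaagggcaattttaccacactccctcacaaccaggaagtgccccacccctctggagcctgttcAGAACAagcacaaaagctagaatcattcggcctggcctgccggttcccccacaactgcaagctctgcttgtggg
Nnat promoter: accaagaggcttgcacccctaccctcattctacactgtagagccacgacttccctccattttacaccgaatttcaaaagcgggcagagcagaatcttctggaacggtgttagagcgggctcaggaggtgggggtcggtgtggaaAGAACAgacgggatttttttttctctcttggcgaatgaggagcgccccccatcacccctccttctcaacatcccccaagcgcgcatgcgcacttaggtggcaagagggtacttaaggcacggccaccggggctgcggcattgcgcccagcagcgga
Peg3 promoter: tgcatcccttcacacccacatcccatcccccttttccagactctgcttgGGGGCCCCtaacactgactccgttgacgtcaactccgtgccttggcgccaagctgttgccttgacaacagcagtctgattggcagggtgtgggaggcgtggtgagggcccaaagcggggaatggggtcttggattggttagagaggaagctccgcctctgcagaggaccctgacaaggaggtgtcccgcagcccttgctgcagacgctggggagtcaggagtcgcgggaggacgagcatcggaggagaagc
TATAAA (13.6% of all promoters) matched on both strands of the first Meg3 promoter at overlapping letters, and CACGTG (7.15%) in the Plagl1 promoter.

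Cdkn1c was the only member that passed the test, and it was higher in ORX. The remaining 9 of the 10 did not pass, and all 9 had fold changes below 0. The count of 1 higher (10%) and 0 lower members stands beside 3.03% higher and 3.18% lower among all tested genes, and 1 of 10 members had groups that did not overlap, beside 5.28% of all tested genes. The members' median log2 fold change was -0.56, against 0.01 over all tested genes, of which 48.7% (6882) lay below 0. Marker lists had medians of like size: -0.60 for fat (10 of 10 below 0), -0.54 for Schwann cells (6 of 8), -0.53 for the medulla (17 of 19), -0.40 for capsule and stroma (11 of 16) and -0.33 for endothelium (8 of 10), against 0.49 for the cortex (3 of 10 below 0) and 0.11 for macrophages (3 of 10). The part of these cell types in the members' median was not tested. With the medulla score as a covariate 54 genes passed in place of 878, and all 12 genes of the imprinted and pathway lists below that had passed lost their call (edgeR adjusted p between 0.0717 and 0.864). The score itself differed between the groups (6.83 ± 0.25 in ORX and 7.48 ± 0.25 in INTACT, mean log2 CPM, SD). Here and below, fits with this score therefore cannot tell it apart from the group, and calls can be lost for that reason alone. Among the 12, log2 fold changes went from larger (Dnmt3l, 2.90 to 3.17) to much smaller (Rtl1, -2.03 to -0.33). An unadjusted p under 0.05 was found for 5 of the 10 members (Cdkn1c, Grb10, Mest, Plagl1 and Dlk1, of which Cdkn1c alone was higher) and for 22.9% of all tested genes. DESeq2 called 3 members, Cdkn1c, Plagl1 and Grb10, and limma voom with sample weights called 5, these 3 with Dlk1 and Mest. Without ORX 6 the edgeR test again called Cdkn1c alone, and the fold changes of the other members lay between -1.20 and -0.36 on the log2 scale. It called 2 members without ORX 3 or without INTACT 4, and 3 without INTACT 3.

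**Figure D1:**
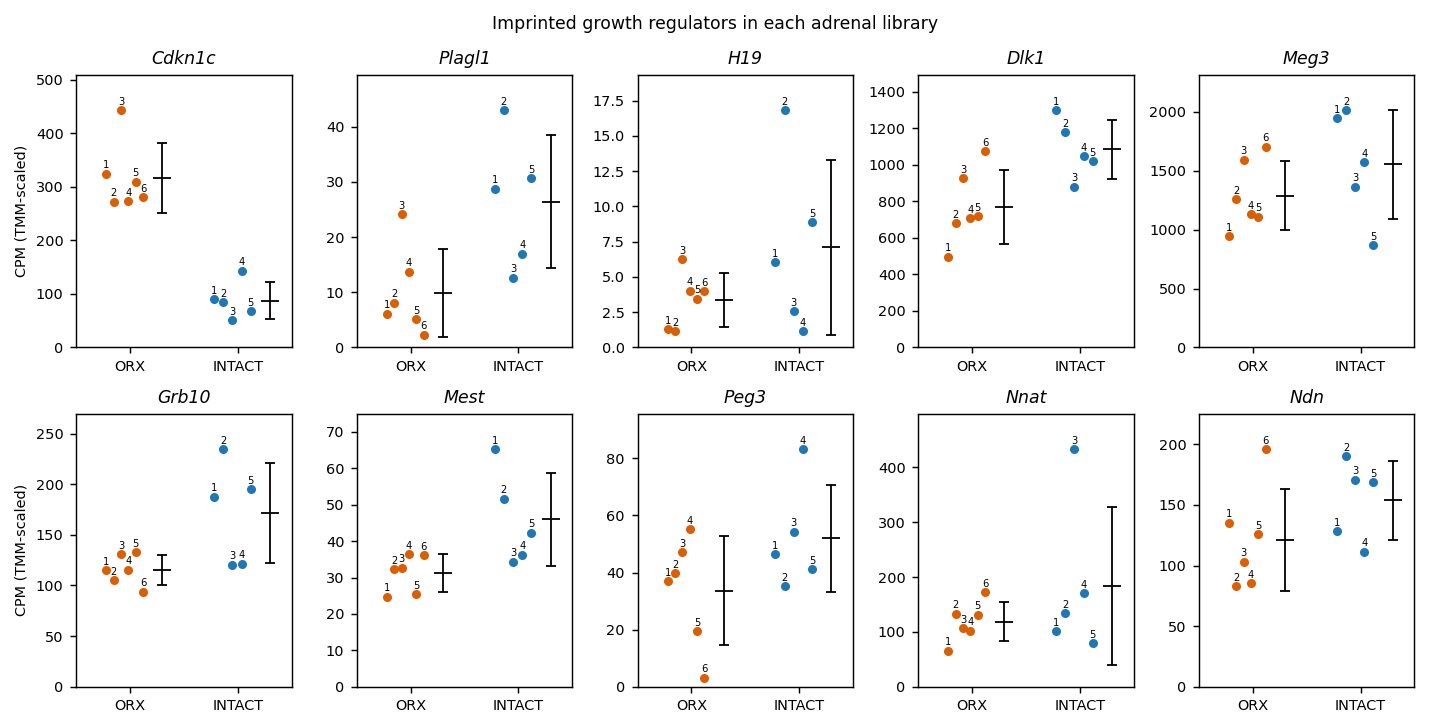
TMM-scaled CPM (vertical axis, from 0, scale set per gene) of the 10 members in each library; every point is 1 library with its sample number, orange for the 6 ORX and blue for the 5 INTACT libraries, and the bars give the mean ± SD. The Cdkn1c points of ORX lie between 272 and 443 CPM and those of INTACT between 51.2 and 143 CPM, while the groups overlap in the other 9 panels.

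Cdkn1c encodes p57Kip2, an inhibitor of cyclin-dependent kinases that holds cells out of the cycle (chromosome 7, 143458339 to 143461050, minus strand, GRCm38). Its level in ORX was 272 CPM at the lowest, 295 CPM at the median and 443 CPM at the highest, against 90.3, 84.5, 51.2, 143 and 68.2 CPM in INTACT 1 to 5. Every ORX library lay above every INTACT library, and INTACT 4, the highest of its group, stood well below the lowest ORX library. The mean was 317 ± 65.3 CPM in ORX and 87.5 ± 34.7 CPM in INTACT (SD, n = 6 and 5), a 3.62-fold difference. On the log2 scale this was 1.86 ± 0.24 (SE; 95% interval 1.33 to 2.38; edgeR adjusted p = 0.000719). Of the tested genes 61 had a smaller p, and 97 of those past the threshold had a larger rise. The log2 fold change lay between 1.70 and 2.09 in 23 alternative analyses, and without ORX 6 it was 1.89 (edgeR adjusted p = 0.00114). With the medulla markers' score added to the model it was 2.02 and the call was lost (edgeR adjusted p = 0.0524); that score was 6.83 ± 0.25 in ORX and 7.48 ± 0.25 in INTACT (mean log2 CPM, SD). A predicted gene, Gm44732, lies across Cdkn1c on the other strand, and whether the counting used the strand is not given in the sources used here.

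Beside Cdkn1c on chromosome 7 lie genes of the same imprinted domain, which in the mouse is controlled by the paternally expressed long RNA Kcnq1ot1. The nearest one, Slc22a18, a maternally expressed transporter-like gene whose start is 12.7 kb from that of Cdkn1c, also rose. It had 6.78 CPM at the lowest, 8.74 CPM at the median and 24.2 CPM at the highest in ORX (the last in ORX 6), against 3.28, 4.76, 5.63, 3.85 and 4.02 CPM in INTACT 1 to 5. The groups did not overlap, and ORX 6 lay far above the other ORX libraries. The log2 fold change was 1.37 ± 0.33 (SE; edgeR adjusted p = 0.0277), and without ORX 6 it was 0.99 (edgeR adjusted p = 0.0158). The call was lost without ORX 1 (edgeR adjusted p = 0.0515), INTACT 1 (0.0722), INTACT 2 (0.0541), INTACT 4 (0.0509) or INTACT 5 (0.0735). Its promoter, printed above, holds 2 CpG pairs, fewer than most.

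Phlda2, a maternally expressed gene known to restrain placental growth in the mouse, starts 42.1 kb from Cdkn1c and was too low for the filter. It was looked at after its values were seen. Its counts were 15, 21, 3, 7, 10 and 10 in ORX 1 to 6, against 1, 2, 3, 4 and 2 in INTACT 1 to 5, in all 66 against 12 counts. INTACT 4, at 4 counts, lay above ORX 3, and the other ORX libraries lay above every INTACT library. With no filter on low counts its log2 fold change was 2.04 ± 0.53 (SE; edgeR adjusted p = 0.0413). Among the imprinted genes left out by the filter, Phlda2 alone passed in that fit. Ascl2, another gene of the domain that was too low for the filter, was at -0.21 ± 0.62 (SE; edgeR adjusted p = 0.883).

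The remaining tested genes of the domain did not pass the test. Kcnq1ot1 had 15.9 ± 4.55 CPM in ORX and 13.3 ± 5.40 CPM in INTACT (SD), a log2 fold change of 0.25 ± 0.31 (SE; edgeR adjusted p = 0.675). Kcnq1, the potassium channel gene in which that RNA starts, had a log2 fold change of -0.55 ± 0.23 (SE; edgeR adjusted p = 0.174). Nap1l4, 88.1 kb from Cdkn1c on the side of Slc22a18, was at 0.05 ± 0.16 (SE; edgeR adjusted p = 0.883). Cd81, 408 kb from Cdkn1c on the side of Kcnq1ot1, was at 0.03 ± 0.14 (SE; edgeR adjusted p = 0.937). Tssc4, 392 kb away on that same side, was at 0.05 ± 0.20 (SE; edgeR adjusted p = 0.915).

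**Figure D2:**
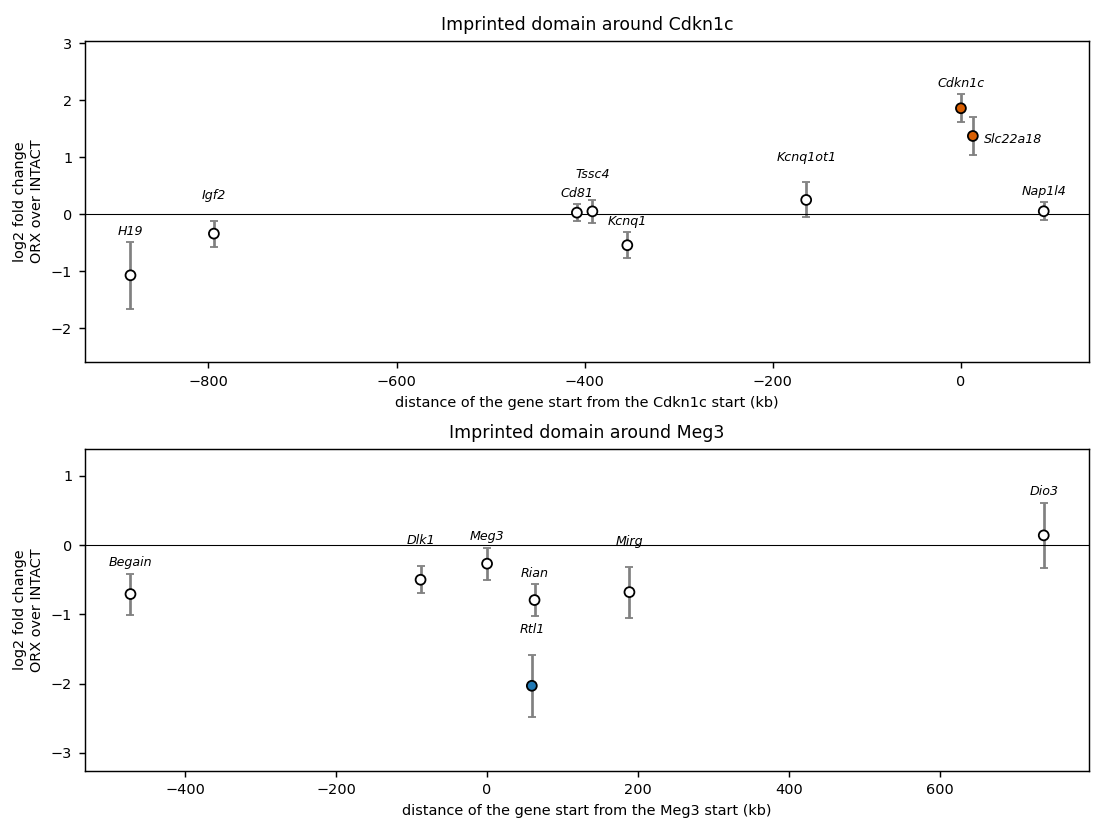
edgeR log2 fold change of ORX over INTACT (vertical axis, bars ± SE) against the distance in kb from the start of Cdkn1c (top) or of Meg3 (bottom) for the tested imprinted genes of each domain; filled points passed the test, orange for higher and blue for lower in ORX. Cdkn1c (1.86) and Slc22a18 (1.37) are the only filled points of the upper panel, and Rtl1 (-2.03) is the only one of the lower panel. The upper panel also holds H19 and Igf2, which share a separate domain 883 and 794 kb from Cdkn1c.

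The count ratio of Kcnq1ot1 over Cdkn1c within a library needs no scaling for library size. Its log2 value was -4.34 ± 0.58 in ORX and -2.77 ± 0.90 in INTACT (SD), a difference of -1.58 (exact two-sided permutation test over 462 assignments, p = 0.00866, and 0.026 adjusted over the 3 ratios tested; the smallest p possible is 0.00216). The ranges overlapped, since ORX 4 stood at -3.52 and INTACT 4 and 5 stood at -3.60 and -3.85. The adjusted exact p was 0.0714 without ORX 1, 2, 3, 5 or 6 and 0.0571 without INTACT 3. The rise of Cdkn1c enters this ratio, and Kcnq1ot1 by itself did not pass. A trend with transcript length does not cancel in it, since the longest transcripts are 93092 bases for Kcnq1ot1 and 1901 bases for Cdkn1c. Kcnq1 overlaps Kcnq1ot1 on the other strand, so these neighbours may share counts.

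Of the genes through which Cdkn1c is known to act, the cyclins, cyclin-dependent kinases and other inhibitors, 18 of 19 were tested, and 0 were higher and 1 lower in ORX (5.56%, beside 6.21% of all genes; median log2 fold change 0.10). The gene that passed was Ccnd2, a D-type cyclin, with 301 ± 42.1 CPM in ORX and 527 ± 159 CPM in INTACT (SD), a log2 fold change of -0.81 ± 0.20 (SE; edgeR adjusted p = 0.0292). That call was lost without any one of ORX 1, 2 and 5 and INTACT 1, 2 and 5, at the highest without INTACT 5 (edgeR adjusted p = 0.0845). The paralogue Cdkn1a, which encodes p21, had 29.4 ± 13.4 CPM in ORX and 82.7 ± 63.6 CPM in INTACT (SD), a log2 fold change of -1.49 ± 0.50 that did not pass (SE; edgeR adjusted p = 0.0941). Cdkn1b, which encodes p27, was at 0.12 ± 0.22 (SE; edgeR adjusted p = 0.783). Cdkn1c was thus the only one of the 3 inhibitors of its family that passed, and a difference between them was not tested.

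Plagl1 encodes Zac1, a zinc finger factor that can arrest the cell cycle and, in the mouse, binds and regulates other imprinted genes (chromosome 10, 13060504 to 13131694, plus strand). Its level was 2.34 CPM at the lowest, 7.11 CPM at the median and 24.2 CPM at the highest in ORX, against 28.7, 43.0, 12.7, 17.0 and 30.7 CPM in INTACT 1 to 5. ORX 3, the highest of its group, reached into the INTACT range, and so did ORX 4 at 13.7 CPM. The other 4 ORX libraries lay below every INTACT library. The mean was 9.93 ± 7.95 CPM in ORX and 26.4 ± 12.01 CPM in INTACT (SD, n = 6 and 5). Its log2 fold change was -1.41 ± 0.49 (SE; 95% interval -2.46 to -0.36; edgeR adjusted p = 0.105). This fold change was the lowest of the members. Without ORX 3 it was -1.90 and passed (edgeR adjusted p = 0.0189), as it did with all libraries in DESeq2 (-1.42, adjusted p = 0.033) and in limma voom with sample weights (-1.53, adjusted p = 0.0187). ORX 3 also had the highest summed capsule and stroma markers of its group, 1588 CPM, against 614 to 977 CPM in the other ORX libraries. Its summed medulla (19022 CPM), fat (14665 CPM) and endothelium markers (1049 CPM) were the highest of its group too. Its summed cortex markers (62338 CPM) were the lowest of its group. The part of these cell types in its Plagl1 level was not tested. With the capsule and stroma score as a covariate the log2 fold change of Plagl1 was -0.98 (edgeR adjusted p = 0.201), and with the medulla score it was -0.03 (edgeR adjusted p = 0.992).

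H19 is a maternally expressed long RNA that limits growth in the mouse and is the host of the miR-675 arm shown above (chromosome 7, 142575529 to 142578143, minus strand). Its counts were low, 18 to 85 in ORX libraries and 14 to 198 in INTACT libraries. It had 1.17 CPM at the lowest, 3.72 CPM at the median and 6.27 CPM at the highest in ORX, against 6.05, 16.8, 2.58, 1.17 and 8.87 CPM in INTACT 1 to 5. INTACT 4 was as low as the lowest ORX library, and INTACT 2 was the highest of all 11. The mean was 3.37 ± 1.92 CPM in ORX and 7.10 ± 6.21 CPM in INTACT (SD), a log2 fold change of -1.07 ± 0.59 (SE; 95% interval -2.34 to 0.19; edgeR adjusted p = 0.299). Without INTACT 2 it was -0.48 (edgeR adjusted p = 0.684).

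Igf2, the paternally expressed growth factor that shares enhancers with H19, had 26.7 CPM at the lowest, 36.7 CPM at the median and 47.7 CPM at the highest in ORX, against 49.6, 40.5, 23.6, 65.2 and 49.3 CPM in INTACT 1 to 5. The groups overlapped, and the mean was 36.0 ± 7.48 CPM in ORX and 45.7 ± 15.2 CPM in INTACT (SD; log2 fold change -0.34 ± 0.23, SE; edgeR adjusted p = 0.397). The log2 ratio of H19 over Igf2 was -3.62 ± 0.73 in ORX and -3.14 ± 1.64 in INTACT (SD), a difference of -0.48 (exact permutation test, p = 0.535, and 0.535 adjusted over the 3 ratios). The ratio spread more widely in INTACT, where INTACT 4 was at -5.75 and INTACT 2 at -1.27. Without INTACT 4 the difference was -1.13 (exact permutation test, adjusted p = 0.0619), and without INTACT 2 it was -0.01 (adjusted p = 0.986, exact).

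Dlk1 and Meg3 share one domain of chromosome 12, and they were the most abundant members by CPM. Dlk1 is a paternally expressed membrane protein related to the ligands of Notch, which keeps precursor cells undifferentiated and, in the adrenal, is made by chromaffin cells of the medulla and, in the rat, by cells under the capsule (109452823 to 109463336, plus strand). It had 497 CPM at the lowest, 713 CPM at the median and 1075 CPM at the highest in ORX, against 1299, 1179, 880.3, 1046 and 1019 CPM in INTACT 1 to 5. ORX 6 and ORX 3 reached into the INTACT range, and the other 4 ORX libraries lay below every INTACT library. The mean was 767 ± 203 CPM in ORX and 1085 ± 160 CPM in INTACT (SD), a log2 fold change of -0.50 ± 0.20 (SE; 95% interval -0.92 to -0.08; edgeR adjusted p = 0.149). Without ORX 6 it was -0.62 (edgeR adjusted p = 0.066), and when INTACT 3 was left out as well it passed at -0.70 (edgeR adjusted p = 0.0393). With the medulla score as a covariate the sign turned, to 0.22 (edgeR adjusted p = 0.726).

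Meg3 is the maternally expressed long RNA of the domain, host of miR-770, and is known to restrain cell growth (109541001 to 109571726, plus strand). It had 947 CPM at the lowest, 1193 CPM at the median and 1702 CPM at the highest in ORX, against 1944, 2014, 1366, 1573 and 867 CPM in INTACT 1 to 5. The groups overlapped over most of their range, and INTACT 5 was the lowest of all 11 libraries. The mean was 1290 ± 296 CPM in ORX and 1553 ± 467 CPM in INTACT (SD), a log2 fold change of -0.27 ± 0.23 (SE; 95% interval -0.77 to 0.23; edgeR adjusted p = 0.529). It was -0.16 without INTACT 2, -0.17 without INTACT 1 and -0.42 without INTACT 5, and did not pass without any single library (edgeR adjusted p = 0.321 at the lowest). Its sign turned with the medulla score as a covariate (0.42) and when the trend with transcript length was removed from each library (0.29). The log2 ratio of Meg3 over Dlk1 was 0.76 ± 0.13 in ORX and 0.47 ± 0.40 in INTACT (SD), a difference of 0.29 (exact permutation test, p = 0.0476, and 0.0714 adjusted over the 3 ratios). INTACT 5, at -0.23, was the only library in which Dlk1 had more counts than Meg3, and without it the difference was 0.12 (exact permutation test, adjusted p = 0.229). Without INTACT 2 the difference was 0.37 and passed (exact permutation test, adjusted p = 0.0214).

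Rtl1, a paternally expressed gene derived from a retrotransposon and needed for a normal placenta in the mouse, lies 59.3 kb from the start of Meg3 and was the one gene of this domain that passed the test. It had 5.13 CPM at the lowest, 8.67 CPM at the median and 18.4 CPM at the highest in ORX, against 53.5, 78.2, 14.3, 14.3 and 42.0 CPM in INTACT 1 to 5. ORX 3 lay above INTACT 3 and INTACT 4, and the other 5 ORX libraries lay below all INTACT libraries. The log2 fold change was -2.03 ± 0.45 (SE; edgeR adjusted p = 0.0186), and the call was lost without INTACT 2 (-1.65, edgeR adjusted p = 0.0512). With the medulla score as a covariate it was -0.33 (edgeR adjusted p = 0.864). The maternally expressed long RNAs of the domain were Rian, at -0.79 ± 0.24 (SE; edgeR adjusted p = 0.0633), and Mirg, at -0.68 ± 0.37 (SE; edgeR adjusted p = 0.295). Begain stood at -0.71 ± 0.30 (SE; edgeR adjusted p = 0.174) and Dio3, which inactivates thyroid hormone, at 0.14 ± 0.47 (SE; edgeR adjusted p = 0.891). None of these 4 passed. Reads of Rtl1 may include its antisense miRNA precursors, which overlap it on the other strand.

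Of 21 genes of the Notch pathway, to which Dlk1 is linked as an atypical ligand, 18 were tested, and 0 were higher and 2 lower in ORX (11.1%, beside 6.21% of all genes; median log2 fold change -0.45). Notch4, the receptor of endothelial cells, had 40.0 ± 2.69 CPM in ORX and 60.6 ± 12.04 CPM in INTACT (SD), a log2 fold change of -0.60 ± 0.14 (SE; edgeR adjusted p = 0.0261). Jag2, a ligand, had 9.52 ± 2.66 CPM in ORX and 17.4 ± 2.69 CPM in INTACT (SD), a log2 fold change of -0.87 ± 0.20 (SE; edgeR adjusted p = 0.0255). The Notch4 call was lost without any one of 4 libraries, ORX 2 and 5 and INTACT 1 and 2 (edgeR adjusted p up to 0.0764), and the Jag2 call without any one of 5, ORX 2, 4 and 5 and INTACT 2 and 5 (up to 0.0635). With the trend in transcript length removed Notch4 was at -0.36 (edgeR adjusted p = 0.239). The summed endothelium markers were 857 to 1049 CPM in ORX and 898 to 1370.0 CPM in INTACT, and their part in the Notch4 result was not tested. The targets Hes1 and Hey1 stood at -0.24 ± 0.15 and -0.54 ± 0.25 (SE; edgeR adjusted p = 0.344 and 0.220), and neither passed.

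**Figure D3:**
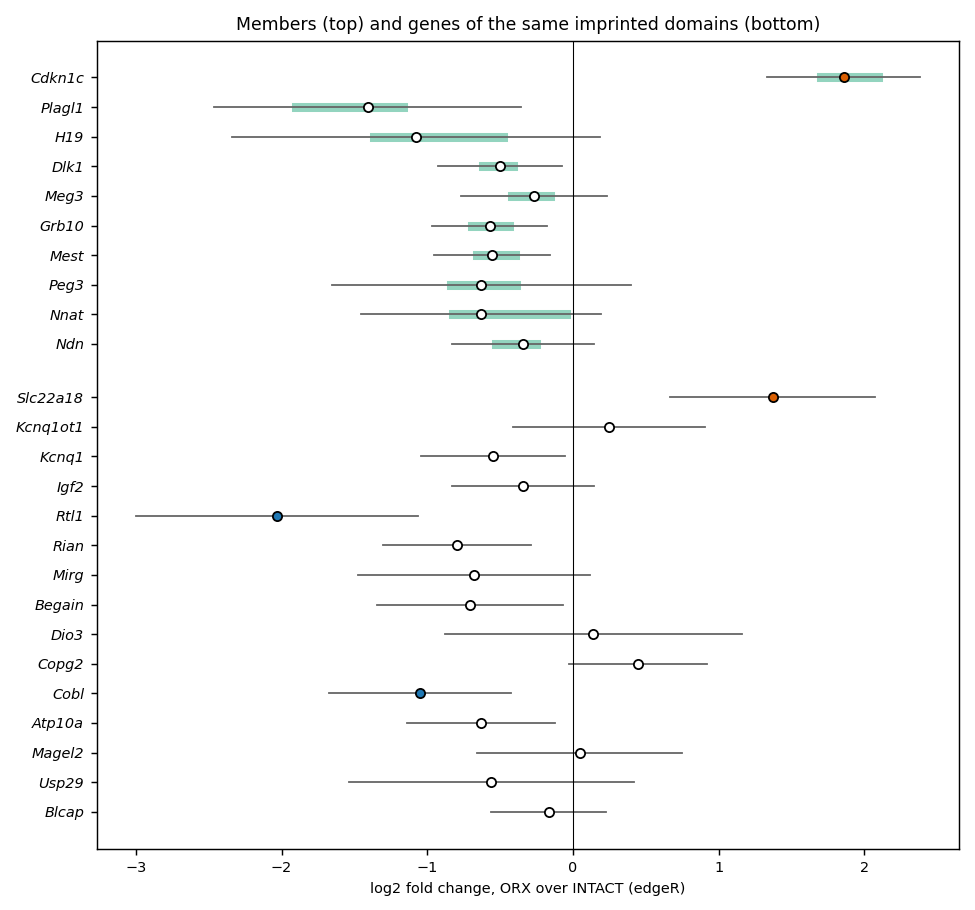
edgeR log2 fold change of ORX over INTACT (horizontal axis) with its 95% interval (thin lines) for the 10 members (top) and 15 of the 24 tested genes of the same imprinted domains (bottom); filled points passed the test, and the green bars give the range when each library is left out in turn. All members except Cdkn1c (1.86) lie below 0, between -1.41 and -0.27, and the leave-one-out bars of all 10 stay on their own side of 0. The genes at the bottom were picked by hand. Left out were Cd81 (0.03), Tssc4 (0.05), Nap1l4 (0.05), Phactr2, Ddc, Ube3a, Zim1, Mkrn3 and Peg12, none of which passed the test.

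Grb10 and Mest are growth regulators with opposite parental origin. Grb10, an adaptor that binds the insulin and insulin-like growth factor receptors and damps their signal, is expressed from the maternal copy in most mouse tissues (chromosome 11, 11930508 to 12038683, minus strand; its first promoter is shown above). It had 93.9 CPM at the lowest, 116 CPM at the median and 133 CPM at the highest in ORX, against 188, 234, 121, 122 and 195 CPM in INTACT 1 to 5. INTACT 3 and INTACT 4 lay within the ORX range, and the other 3 INTACT libraries lay above it. The mean was 116 ± 14.9 CPM in ORX and 172 ± 49.6 CPM in INTACT (SD), a log2 fold change of -0.57 ± 0.18 (SE; 95% interval -0.97 to -0.17; edgeR adjusted p = 0.0825). It passed without INTACT 3 (-0.69, edgeR adjusted p = 0.0378), without INTACT 4 (-0.69, 0.0443), in DESeq2 (-0.58, adjusted p = 0.0432) and in limma voom with sample weights (-0.58, adjusted p = 0.0277).

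Mest, a paternally expressed enzyme-like protein of the endoplasmic reticulum that promotes fetal growth in the mouse, is the host of miR-335 (chromosome 6, 30723547 to 30748465, plus strand). It had 24.7 CPM at the lowest, 32.5 CPM at the median and 36.5 CPM at the highest in ORX, against 65.2, 51.7, 34.3, 36.3 and 42.4 CPM in INTACT 1 to 5. As with Grb10, INTACT 3 and INTACT 4 lay within the ORX range and the other 3 INTACT libraries above it. The mean was 31.3 ± 5.12 CPM in ORX and 46.0 ± 12.7 CPM in INTACT (SD), a log2 fold change of -0.56 ± 0.18 (SE; 95% interval -0.95 to -0.16; edgeR adjusted p = 0.0914). It passed without INTACT 3 (-0.66, edgeR adjusted p = 0.0489) and in limma voom with sample weights (-0.61, adjusted p = 0.0376), and its sign turned with the medulla score as a covariate (0.18). Copg2, which overlaps Mest on the other strand, was at 0.45 ± 0.22 (SE; edgeR adjusted p = 0.246).

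Cobl, an actin-nucleating gene in the Grb10 domain, had 3.57 ± 1.11 CPM in ORX and 7.40 ± 2.77 CPM in INTACT (SD), a log2 fold change of -1.05 ± 0.29 (SE; edgeR adjusted p = 0.0481). The call was lost without any one of ORX 1, 2, 5 and 6 and INTACT 1, 2 and 5 (without ORX 6 -0.94, edgeR adjusted p = 0.0721), at the highest without INTACT 5 (-0.84, 0.144), and when library totals replaced TMM scaling (-0.99, edgeR adjusted p = 0.0596). Of the 31 genes of the members' domains in the table, 24 were tested, and 1 was higher (Slc22a18) and 2 lower (Rtl1 and Cobl) in ORX, 12.5% beside 6.21% of all genes, with a median log2 fold change of -0.16. The number that passed was 0 without INTACT 2, 1 without ORX 1, INTACT 1 or INTACT 5, and 4 without INTACT 3 or INTACT 4.

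Of 16 tested genes of insulin receptor signalling, the pathway that Grb10 restrains, 1 was higher and 1 lower in ORX (12.5%, beside 6.21% of all genes; median log2 fold change -0.06). The one that fell was Grb14, the closest relative of Grb10 and likewise an inhibitor of the insulin receptor, with 33.1 ± 4.65 CPM in ORX and 58.2 ± 4.72 CPM in INTACT (SD). Its log2 fold change was -0.82 ± 0.13 (SE; edgeR adjusted p = 0.00251), all ORX libraries lay below all INTACT libraries, and it passed without each library in turn. With the medulla score as a covariate it was -0.71 and the call was lost (edgeR adjusted p = 0.213). Akt1, a kinase downstream of the receptor, had 471 ± 49.6 CPM in ORX and 331 ± 39.0 CPM in INTACT (SD), a log2 fold change of 0.51 ± 0.14 (SE; edgeR adjusted p = 0.0431) whose call was lost without any one of ORX 1, 2, 4 and 5 and INTACT 1, 2, 3 and 5 (up to 0.112, without ORX 2). The receptors stood at -0.06 ± 0.17 for Insr and 0.14 ± 0.25 for Igf1r (SE; edgeR adjusted p = 0.871 and 0.784). Irs2, an adaptor of the receptor, stood at -1.67 ± 0.53 (SE; edgeR adjusted p = 0.0793), and none of these 3 passed.

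Peg3, Nnat and Ndn are paternally expressed genes known mainly from the brain and from fetal tissues. Peg3, a zinc finger protein, has a long transcript of 8694 bases (chromosome 7, 6703892 to 6730431, minus strand). It had 3.24 CPM at the lowest, in ORX 6, 38.3 CPM at the median and 55.2 CPM at the highest in ORX, against 46.4, 35.3, 54.3, 83.1 and 41.2 CPM in INTACT 1 to 5. Apart from ORX 6 and ORX 5 (19.5 CPM), the ORX libraries lay within the INTACT range. The mean was 33.6 ± 19.1 CPM in ORX and 52.1 ± 18.7 CPM in INTACT (SD), a log2 fold change of -0.63 ± 0.48 (SE; 95% interval -1.65 to 0.40; edgeR adjusted p = 0.465). Without ORX 6, the library low in long transcripts, it was -0.39 (edgeR adjusted p = 0.441).

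Nnat encodes neuronatin, a small membrane protein of the endoplasmic reticulum (chromosome 2, 157560078 to 157562522, plus strand). It had 65.5 CPM at the lowest, 119 CPM at the median and 173 CPM at the highest in ORX, against 102, 134, 433, 170.1 and 79.6 CPM in INTACT 1 to 5. INTACT 3 stood alone, and the other 4 INTACT libraries lay within the ORX range. The mean was 119 ± 36.2 CPM in ORX and 184 ± 143 CPM in INTACT (SD), a log2 fold change of -0.63 ± 0.38 (SE; 95% interval -1.45 to 0.19; edgeR adjusted p = 0.353). Without INTACT 3 it was -0.04 (edgeR adjusted p = 0.932).

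Ndn encodes necdin, which binds E2F factors and restrains the division of neurons (chromosome 7, 62346569 to 62350262, plus strand). It had 83.1 CPM at the lowest, 114 CPM at the median and 196 CPM at the highest in ORX, against 128, 190.1, 171, 111 and 169 CPM in INTACT 1 to 5. The highest library of all was ORX 6, and the 3 lowest were also ORX libraries. The mean was 121 ± 42.1 CPM in ORX and 154 ± 32.7 CPM in INTACT (SD), a log2 fold change of -0.34 ± 0.23 (SE; 95% interval -0.83 to 0.14; edgeR adjusted p = 0.397). Without ORX 6 it was -0.53 (edgeR adjusted p = 0.111).

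**Figure D4:**
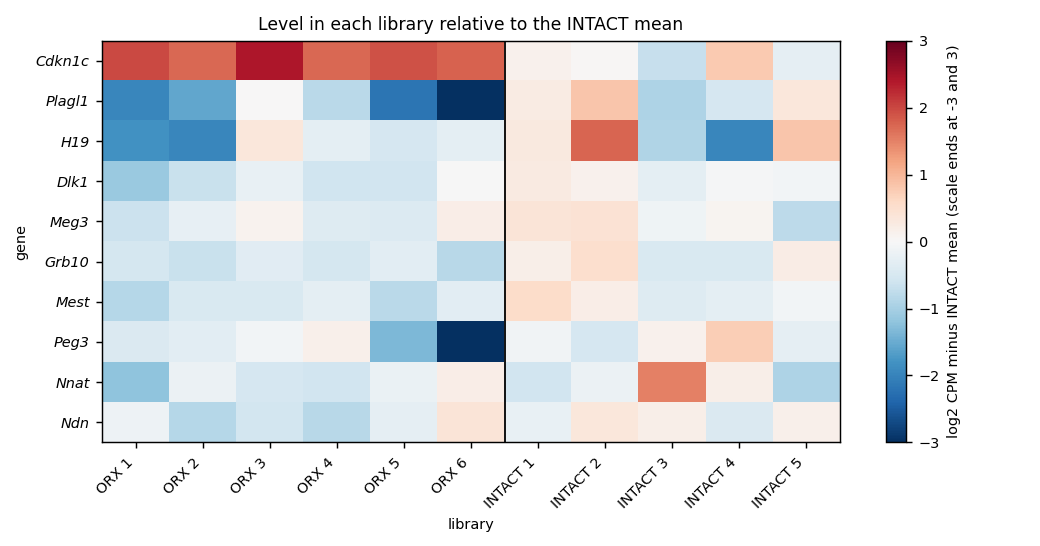
Level of each member (rows) in each library (columns; 6 ORX on the left, 5 INTACT on the right), as log2 CPM minus the INTACT mean, with colours ending at -3 and 3 and red for higher. Cdkn1c is red in all 6 ORX columns, from 1.72 to 2.42, and Peg3 reaches -3.88 in ORX 6, past the end of the scale.

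The members differed widely in abundance, which is compared here per kilobase of the union of exons. In ORX, Cdkn1c led with 155 CPM per kb, followed by Dlk1 (136), Meg3 (71.3), Nnat (64.9), Ndn (32.9), Grb10 (12.7), Mest (7.93), Peg3 (2.52), H19 (1.37) and Plagl1 (1.27). In INTACT, Dlk1 led with 192 CPM per kb, followed by Nnat (100.4), Meg3 (85.8), Cdkn1c (42.9), Ndn (41.6), Grb10 (18.9), Mest (11.7), Peg3 (3.91), Plagl1 (3.38) and H19 (2.89). Cdkn1c thus stood at the top of the order in ORX and behind Dlk1, Nnat and Meg3 in INTACT. Per kb of exon union it was above Dlk1 in 5 of 6 ORX libraries and in 0 of 5 INTACT libraries. The lead of Cdkn1c over Dlk1 in ORX depends on the length used, and the annotation used for counting is not given. The exon unions were 5657 bases for Dlk1 and 2039 bases for Cdkn1c. Their longest transcripts, 4653 and 1901 bases, would bring the ORX levels of both genes close together. The place of Nnat before Meg3 in INTACT rested on INTACT 3, without which Nnat averaged 66.4 and Meg3 88.4 CPM per kb. Cdkn1c and Ndn changed places in INTACT without INTACT 1 (42.6 and 43.4 CPM per kb) or INTACT 4 (36.1 and 44.5 CPM per kb), and H19 and Plagl1 in ORX without ORX 5 or ORX 6. Together the 10 members took 0.283 ± 0.0469% of all counts in ORX and 0.330 ± 0.0537% in INTACT (SD), a difference of -0.0473 percentage points (exact two-sided permutation test, p = 0.152). Without INTACT 5 the difference was -0.0699 percentage points (p = 0.0286, exact). Without Meg3, the most abundant member, the shares were 0.153% in ORX and 0.178% in INTACT (exact p = 0.0541).

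**Figure D5:**
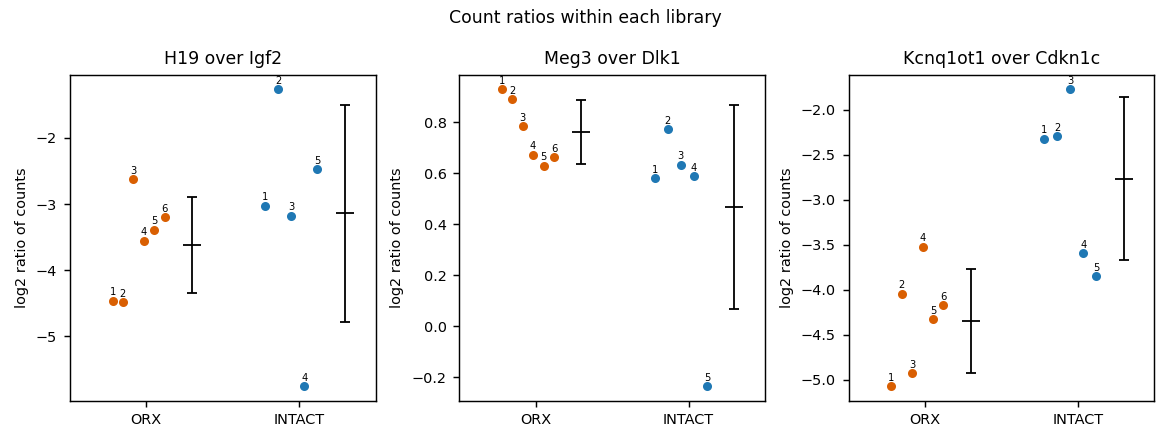
log2 ratio of the counts of a maternally and a paternally expressed gene of the same domain in each library (H19 over Igf2, Meg3 over Dlk1, and, inverted, the paternal Kcnq1ot1 over the maternal Cdkn1c); points are libraries with their sample numbers, orange for ORX and blue for INTACT, and bars are the mean ± SD. The third ratio averages -4.34 in ORX and -2.77 in INTACT, and INTACT 5 stands alone at -0.23 in the middle panel.

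Among libraries, several members shared their high and low samples. INTACT 1, 2 and 5 were the 3 highest of all 11 for Plagl1 and Grb10, and the 3 highest for Mest and Rtl1 as well. The summed medulla markers were 33396, 20134 and 18446 CPM in these 3 libraries, against 14004 CPM in INTACT 3 and 17811 CPM in INTACT 4, and ORX 3 at 19022 CPM lay above INTACT 5. The summed cortex markers were 75103, 79889 and 69409 CPM in INTACT 1, 2 and 5, against 35548 CPM in INTACT 3 and 50417 CPM in INTACT 4. The summed capsule and stroma markers were 1490, 1367 and 1443 CPM in INTACT 1, 2 and 5, against 1167 CPM in INTACT 3 and 756 CPM in INTACT 4. The part of these cell types in the shared order was not tested. Within the groups, the genes most like each member were described by Pearson's r of the deviations from the group mean over the 11 samples, among 13725 genes, which share their library, depth and tissue mix. Dlk1 ran closest to Syp (r = 0.99), a vesicle protein of neurons and chromaffin cells, and to Mt3 (0.97). H19 ran closest to the collagen chaperone gene Serpinh1 (0.98) and to Fzd3 (0.96). Peg3 ran with Fam171b (0.99) and 9330182L06Rik (0.98), Ndn with Ube2a (0.98) and Hn1 (0.98), and Plagl1 with Dapk1 (0.96) and Taf1 (0.96). Grb10 ran with Pde10a (0.96) and Cct6a (0.96), Mest with Kif17 (0.95) and Lcn2 (0.93), Meg3 with Cmtm3 (0.95) and Shc2 (0.94), and Nnat with Aaas (0.93) and Nrip2 (0.91). Cdkn1c had the least close companions, Iffo2 (0.81) and Poc5 (0.78). None of the 10 members was among these companions of another member. The companions were picked as the closest of the 13725 genes, and an r can rest on a single library. Relative to the INTACT mean, Peg3 stood at -3.88 in ORX 6 and Nnat at 1.51 in INTACT 3 on the log2 scale. Correlations without these libraries were not computed.

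Imprinted genes outside the members' domains were counted from a list of 31, of which 28 were tested. Of these 2 were higher and 1 lower in ORX (10.7%, beside 6.21% of all genes), with a median log2 fold change of -0.06. Kcnk9, a maternally expressed potassium channel, had 7.65 ± 4.60 CPM in ORX and 80.2 ± 38.0 CPM in INTACT (SD), with no overlap (log2 fold change -3.39 ± 0.52, SE; edgeR adjusted p = 0.00251). With the medulla score as a covariate it was -3.32 (edgeR adjusted p = 0.223). Pon3 and Pon2, neighbouring genes of the paraoxonase family, stood at 0.76 ± 0.15 and 0.60 ± 0.16 (SE; edgeR adjusted p = 0.0114 and 0.0414), and the Pon2 call was lost without any one of the 9 libraries other than ORX 3 and ORX 6 (up to 0.106, without ORX 2). Of 14 tested genes that set or keep imprints, 1 was higher and 0 were lower (7.14%, beside 6.21% of all genes; median log2 fold change -0.01). The one was Dnmt3l, a partner of the DNA methyltransferases that lay down imprints in germ cells, with 13.7 ± 4.80 CPM in ORX and 1.84 ± 0.930 CPM in INTACT (SD; log2 fold change 2.90 ± 0.37, SE; edgeR adjusted p = 0.000555). With the medulla score it was 3.17 and did not pass (edgeR adjusted p = 0.0717). Zfp57, a zinc finger protein that protects imprints in the embryo, stood at -1.16 ± 0.33 (SE; edgeR adjusted p = 0.0575) and did not pass.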

How the data were processed

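RNA sequencing counts of 6 ORX and 5 INTACT adrenal samples were used. The authors deposited raw counts per gene symbol, as the whole numbers and unequal library totals show; of 2 identical copies of the table the first was used. Subread 1.5.1, bcl2fastq 1.8.4 and the build mm10 are named, without roles, per the submitters' processing notes. Libraries were made from 300 ng of RNA, and the labels' protocols name both a stranded and an unstranded kit guide. Antisense partners may share counts, since annotation, strand setting and multi-mapping were not given in the sources used here. Libraries of a group differed by more than sampling noise (chi-square per degree of freedom at least 26.8).

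Genes were kept by filterByExpr (minimum count 10, minimum total 15; 14139 genes, 99.9% of counts), TMM-scaled and tested in R 4.3.3 by edgeR 4.0.16 (glmQLFTest, ORX against INTACT, no covariate, Benjamini-Hochberg at 0.05; biological coefficient of variation 30.2%), after a check on simulated data. Standard errors were computed from the F statistics. Ratios used counts plus 0.5 and an exact permutation test. Positions are GENCODE M21 on GRCm38 (mm10), matched by symbol.

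Alternatives were DESeq2 1.42.0, limma 3.58.1 voom with sample weights, library totals or RLE in place of TMM, no filter or 1 CPM in 5 samples, a threshold of 0.01, marker scores as covariates, a replicate block and each library left out. Removal of the length trend and leaving out INTACT 3 with ORX 6 were added after seeing the data. The labels do not state that the numbers shared by the groups pair the samples. Same-numbered deviations correlated at -0.28, -0.12, -0.21, 0.18 and 0.18, which cannot exclude a shared batch.

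The members and gene lists were chosen with earlier results of these data known. The text names the members and Igf2, up to 6 genes past the threshold per list (3 per marker list, by smallest p) and the 2 genes most like each member. Phlda2, Ascl2, Kcnq1, Nap1l4, Cd81, Tssc4, Rian, Mirg, Begain, Dio3, Cdkn1a, Cdkn1b, Hes1, Hey1, Scarb1, Cyp11a1, Fdx1, Insr, Igf1r, Irs2 and Zfp57 were added after their values were seen.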

Additional observations from a re-analysis of the deposited data

Results flagged for a closer look

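Of 28 groups of values checked (each member, the 3 ratios and the share of counts, in ORX and in INTACT), 3 held a sample farther from the rest than the 95% critical value of Dixon's test, and chance gives about 1 in 20. Cdkn1c was 443 CPM in ORX 3, far above the other ORX libraries (gap over range 0.692, critical value 0.625). Without ORX 3 its log2 fold change was 1.74 (edgeR adjusted p = 0.00107). Nnat was 433 CPM in INTACT 3, far above the other INTACT libraries (0.744, critical value 0.71). The log2 ratio of Meg3 over Dlk1 was -0.23 in INTACT 5, far below the other INTACT libraries (0.809, critical value 0.71).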

How the results depend on the processing

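Cdkn1c kept its direction and call in 22 of 23 alternatives, and Ndn, Nnat and Peg3 kept their direction, uncalled, in all 23. Over the 23 the adjusted p ranged from 2.67e-11 to 0.0524 for Cdkn1c, 0.0187 to 0.992 for Plagl1, 0.143 to 0.922 for H19, 0.0177 to 0.726 for Dlk1, 0.320 to 0.782 for Meg3, 0.0277 to 0.812 for Grb10, 0.0376 to 0.787 for Mest, 0.279 to 0.689 for Peg3, 0.215 to 0.932 for Nnat and 0.0736 to 0.829 for Ndn (edgeR, DESeq2 or limma). No scaling moved the median of all genes by over 0.1 on the log2 scale. The cause of the changes below was not tested.

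The number of genes changed (878) was 1737 in DESeq2, 2056 in limma voom, 260.0 at an adjusted p under 0.01, 54 with the medulla covariate, 282 with the capsule and stroma covariate, and 408 to 1280 without single libraries. Members changed (1) numbered 3 in DESeq2, 5 in limma voom, 0 with the medulla covariate, 4 without INTACT 3 and ORX 6 together, and 1 to 3 without single libraries (2 without ORX 3 or INTACT 4, 3 without INTACT 3). Same-domain genes changed (3) numbered 5 in DESeq2, 7 in limma voom, 0 at the stricter threshold or with either covariate, and 0 to 4 without single libraries. Other imprinted genes (3) numbered 6 in DESeq2, 5 in limma voom, 1 at the stricter threshold, 0 with the medulla and 1 with the stroma covariate, and 2 to 5 without single libraries. Notch genes (2) numbered 5 in DESeq2, 4 in limma voom, 0 at the stricter threshold or with either covariate, and 0 to 3 without single libraries. Cyclin-dependent kinase inhibitors and partners (1) numbered 3 in DESeq2 and limma voom, 0 at the stricter threshold, with either covariate or with the length trend removed, 2 without INTACT 3 and ORX 6 together, and 0 to 2 without single libraries. Insulin receptor genes (2) numbered 4 in DESeq2 and limma voom, 1 with no filter, at the stricter threshold, with the stroma covariate, with the length trend removed or without INTACT 3 and ORX 6 together, 0 with the medulla covariate, and 1 to 5 without single libraries. Imprint maintenance genes (1) numbered 2 in DESeq2, 3 in limma voom, 0 with the medulla covariate, 2 with the length trend removed or without INTACT 3 and ORX 6 together, and 1 to 3 without single libraries.

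With the medulla covariate, the log2 fold changes of H19 (1.09), Dlk1 (0.22), Meg3 (0.42), Mest (0.18) and Npy (0.47) reversed, and Cdkn1c (2.02) lost its call. That score differed between the groups, so the fit cannot tell it apart from the group. Meg3 also reversed with the length trend removed (0.29). Limma voom called Dlk1 (-0.66), Mest (-0.61), Plagl1 (-1.53) and Grb10 (-0.58); DESeq2 called Plagl1 (-1.42) and Grb10 (-0.58); leaving out INTACT 3 and ORX 6 together called Dlk1 (-0.70), Mest (-0.70) and Grb10 (-0.63). Without single libraries the log2 fold changes ranged from -1.90 to -1.17 for Plagl1, -0.69 to -0.44 for Grb10 and -0.66 to -0.40 for Mest. The ratio of Kcnq1ot1 over Cdkn1c differed by -1.36 without INTACT 3 and ORX 6 together (exact adjusted p = 0.0714) and by -1.85 to -1.33 without single libraries. The ratio of H19 over Igf2 differed by -1.13 to -0.01 and that of Meg3 over Dlk1 by 0.12 to 0.37 without single libraries, and the members' share of counts by -0.0699 to -0.0349 percentage points.

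The replicate block leaves out ORX 6, and its numbers are not stated to pair the samples (2 of 5 correlated best with their own number). With it 409 genes changed, 0 same-domain genes, 0 Notch genes, 0 cyclin-dependent kinase inhibitors and partners and 1 insulin receptor gene. Cdkn1c stood at 1.95 in the block (edgeR adjusted p = 0.0135). In the block the ratio of Kcnq1ot1 over Cdkn1c differed by -1.61 (exact adjusted p = 0.188).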
